A study of Mus musculus with 8 samples.

Results

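The 8 genes described here mark neurons of the deep layers of the mouse cortex: Fezf2, Tbr1, Tle4, Foxp2, Etv1, Nr4a2, Crym and Pcp4. They were taken by gene name from an expression table of the cortex of mice on a conventional or a high fat diet, and all 8 of them were among the 13996 genes of the table and among the 13982 genes that entered the test. The mice were male C57BL/6, with no genetic change named, and were 16 weeks old. The 4 Normal mice (Normal 1 to 4) had been fed the conventional diet and the 4 HFD mice (HFD 1 to 4) a diet with 60% fat, in both groups for 8 weeks. rRNA-depleted total RNA of each cortex was sequenced, and the level of each gene was given in FPKM, fragments per kilobase of transcript scaled to the mapped fragments of the library. The labels numbered the samples within each diet and did not mention pooling, so each was taken as 1 mouse, and p-values measure the spread between mice.

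Deep layer neurons are the main output cells of the cortex. Layer 5 neurons of the extratelencephalic class send axons to the brainstem and spinal cord, layer 6 corticothalamic neurons send them to the thalamus, and layer 6b holds the neurons that remain of the embryonic subplate. Fezf2, a zinc finger transcription factor, specifies the layer 5 class, while Tbr1, a T-box factor, specifies layer 6 and represses Fezf2 there. Tle4 is a corepressor and Foxp2 a forkhead factor of layer 6, Etv1 is an ETS factor of layer 5, and Nr4a2 is an orphan nuclear receptor of layer 6b and the claustrum. Crym binds thyroid hormone and Pcp4 binds calmodulin, and both are strong markers of deep layer neurons. Several of these genes are also known outside the cortex: Pcp4 in the striatum, the thalamus and Purkinje cells of the cerebellum, Foxp2 in the striatum, the thalamus and Purkinje cells, and Etv1 in granule cells of the cerebellum.

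The genes lie on 7 chromosomes. In GENCODE M21 (GRCm38), Fezf2 spans 12342094 to 12348189 on the minus strand of chromosome 14, and Tbr1 spans 61802930 to 61814114 on the plus strand of chromosome 2. Nr4a2 is also on chromosome 2, from 57106830 to 57124003 on the minus strand. Tle4 covers 14448150 to 14598051 of chromosome 19 (minus strand), Etv1 covers 38779380 to 38870484 of chromosome 12 (plus strand), and Crym covers 120186380 to 120202111 of chromosome 7 (minus strand). Foxp2 is the longest at 540629 bp, from 14901349 to 15441977 of chromosome 6 (plus strand). Pcp4 runs from 96467606 to 96525793 on the plus strand of chromosome 16, and for 57975 bp of this it overlaps a gene model of Igsf5 on the same strand. The sources used here do not say how reads of that overlap were assigned, and Igsf5 was not analysed here.

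The bases before the start site are shown for the 2 members with the largest increases (Fezf2 and Tbr1), the member with the largest decrease (Pcp4), and Nr4a2, the member from a family of activity-induced genes. They come from the RefSeq promoter table (GRCm38.p6), which held 8 start sites for 6 of the 8 members. Each runs from 5′ to 3′ on the strand of the gene and ends at the base before the start site, except that of Fezf2, which was cut where GENCODE M21 first annotates a UTR. Capitals mark matches, on either strand, to 5 motifs: CGTCA (part of the cAMP response element), CCAAT (the CCAAT box), TATAAA (the TATA box), CATCTG (an E-box) and TAATTA (a homeodomain core).
Fezf2, chr14:12345960-12346115, minus strand: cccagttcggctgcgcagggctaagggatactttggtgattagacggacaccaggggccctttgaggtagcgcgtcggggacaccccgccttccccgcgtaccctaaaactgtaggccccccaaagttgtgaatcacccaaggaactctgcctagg
Tbr1, chr2:61804203-61804452, plus strand: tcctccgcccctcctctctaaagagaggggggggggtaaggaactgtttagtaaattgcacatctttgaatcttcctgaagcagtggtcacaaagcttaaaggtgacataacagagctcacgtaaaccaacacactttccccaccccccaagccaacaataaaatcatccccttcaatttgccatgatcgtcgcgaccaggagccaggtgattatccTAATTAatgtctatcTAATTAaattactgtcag
Nr4a2, chr2:57124004-57124253, minus strand: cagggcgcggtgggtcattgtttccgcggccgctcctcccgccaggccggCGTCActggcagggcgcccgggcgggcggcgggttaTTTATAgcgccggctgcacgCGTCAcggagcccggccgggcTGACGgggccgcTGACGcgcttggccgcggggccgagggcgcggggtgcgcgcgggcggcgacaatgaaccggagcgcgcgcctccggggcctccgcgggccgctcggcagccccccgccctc
Pcp4, chr16:96467356-96467605, plus strand: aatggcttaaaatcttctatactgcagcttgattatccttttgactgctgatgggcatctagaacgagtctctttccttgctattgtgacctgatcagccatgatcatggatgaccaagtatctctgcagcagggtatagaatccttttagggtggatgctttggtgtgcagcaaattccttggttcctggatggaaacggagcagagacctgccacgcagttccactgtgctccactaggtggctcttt

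The 4 stretches differed in composition. In the 250 bases before the start site, G and C made up 80.0% for Nr4a2, 61.2% for Fezf2, 46.8% for Pcp4 and 45.2% for Tbr1, against a median of 52.4% over 32851 start sites of all genes. CpG pairs numbered 44 for Nr4a2, 14 for Fezf2, 5 for Tbr1 and 3 for Pcp4, against a median of 6. CGTCA occurred 4 times before Nr4a2. Of all start sites, 17.8% had at least 1 CGTCA within this distance and 0.137% had 4 or more. CGTCA itself holds a CpG pair, and these shares were not matched to the composition of the Nr4a2 stretch. Nr4a2 also held 1 match to TATAAA, found at 12.4% of all start sites. Tbr1 held 2 matches to TAATTA, found once or more at 4.84% and 2 or more times at 0.444% of all start sites. The stretches before Fezf2 and Tbr1 each lay inside the M21 bounds of their own gene, and the one before Pcp4 lay inside the bounds of Igsf5. No match to any of the 5 motifs was in the 250 bases before Fezf2 or Pcp4. The marked matches did not overlap each other. CCAAT (33.8% of all start sites) and CATCTG (14.4%) had no match in the 4 stretches. A match of letters describes the sequence and does not show that a factor binds there.

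The libraries were first checked against markers of cortex and of neighbouring regions. Defining genes of cortical excitatory neurons were present in all 8 mice, with Slc17a7, the vesicular glutamate transporter of the cortex, at 209.5 to 315.8 FPKM in Normal mice and 337.1 to 403.9 FPKM in HFD mice. Markers of other regions stood higher in most Normal mice than in HFD mice. The summed FPKM of 10 striatum genes was 245.5 to 452.6 in Normal mice and 81.5 to 90.9 in HFD mice. That of 8 cerebellum genes was 23.7, 265.7, 361.9 and 80.2 in Normal mice 1 to 4 and 17.3 to 20.6 in HFD mice, where the defining marker Gabra6 was at 0 to 0.2 FPKM. That of 8 thalamus genes was 41.8, 105.5, 88.9 and 28.6 in Normal mice and 25.6 to 29.2 in HFD mice. Normal 2 and Normal 3 were thus the highest in cerebellum and thalamus markers. All 4 Normal mice were above the HFD mice in striatum markers and in cerebellum markers, Normal 1 by little in the latter. In thalamus markers Normal 1 was above the HFD mice as well, while Normal 4 was within their range. With only Normal 1 and Normal 4 as controls, 10 of 10 striatum, 4 of 7 cerebellum and 1 of 7 thalamus genes were still lower in HFD mice (limma). In that fit 2 of 2 olfactory bulb genes were called lower, against 0 with all Normal mice. The summed FPKM of these olfactory bulb genes was 20.2 in Normal 4 and 2.6 to 5.0 in the other Normal mice. The striatum marker level and the diet cannot be told apart in these mice. In bulk tissue, fewer cells of a type and less RNA per cell cannot be told apart either.

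In high fat diet fed mice, 3 of the 8 genes increased (Fezf2, Tbr1 and Tle4), 2 decreased (Foxp2 and Pcp4), and 3 did not pass the test (Etv1, Nr4a2 and Crym). A gene was called at an adjusted p below 0.05 in limma, fitted on log2(FPKM + 0.1) of all genes. By this rule 33.1% of all genes tested were called, 17.7% higher and 15.3% lower in HFD mice. The change also exceeded 50% for 4 members, where 7.13% of all genes did (4.23% higher and 2.9% lower). The FPKM of the diets did not overlap for the 5 members called, and for 31.9% of all genes. The median log2 fold change of the 8 members was 0.32, against 0.00 over all genes tested, and the median of its size was 0.56 against 0.17. The members were chosen with earlier results of these data known. These shares and medians are therefore a description, and whether deep layer genes changed more than other genes was not tested. With only Normal 1 and Normal 4 as controls, an alternative chosen after seeing the data, 5 members were called again, with Etv1 in place of Foxp2, and 19.6% of all genes. With the mean level of the cerebellum genes as a covariate 1 member was called (Pcp4), and 3.28% of all genes. This level, in log2, did not overlap between diets either (1.05 to 5.11 in Normal mice, -0.12 to 0.37 in HFD mice). Standard errors rose from 0.168 to 0.289 for Foxp2 and from 0.197 to 0.261 for Tbr1, but hardly for Fezf2 (0.175 to 0.176). The log2 differences of Fezf2, Tbr1, Tle4 and Foxp2 also shrank in size, that of Fezf2 from 1.232 to 0.567. Since the level did not overlap between diets, a call lost in this fit does not fully tell the cerebellum level from the diet.

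With the mean level of the striatum genes as a covariate, which nearly follows the diet, limma called 0 members and 0 of all genes (at an unadjusted p below 0.05, 0 members and 296 genes), and standard errors were several times wider. In that fit the log2 difference was 1.295 for Fezf2 (standard error 0.933) and 0.40 for Tle4 (standard error 0.357), about as large as without the covariate. It was 0.11 for Tbr1 (standard error 1.0), 0.04 for Foxp2 (standard error 0.866) and -0.18 for Pcp4 (standard error 0.401). For Etv1 it was 0.09, for Nr4a2 0.07 and for Crym -0.01, with standard errors of 0.66, 1.3 and 0.732.

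**Figure D1:**
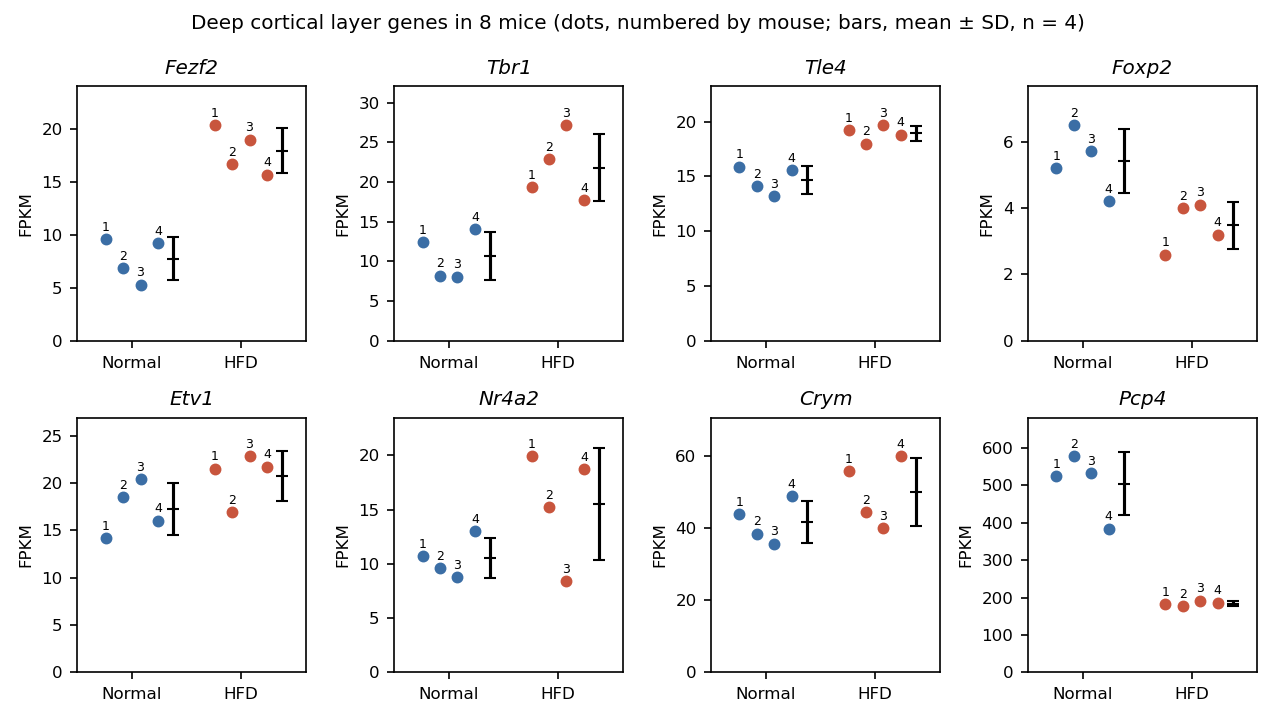
FPKM of the 8 genes in each mouse (dots, numbered by mouse; Normal in blue, HFD in red), with the mean and SD of 4 mice as bars; each panel has its own axis from 0. The dots of the diets are apart for Fezf2, Tbr1, Tle4, Foxp2 and Pcp4, and overlap for Etv1, Nr4a2 and Crym.

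Fezf2, the factor that specifies extratelencephalic neurons of layer 5, was at 9.6, 6.9, 5.3 and 9.2 FPKM in Normal mice 1 to 4. In HFD mice 1 to 4 it was at 20.4, 16.7, 19.0 and 15.7 FPKM. Every HFD mouse was above every Normal mouse, and Normal 2 and Normal 3 were the lowest of the 8. The mean rose from 7.75 ± 2.02 FPKM (SD, n = 4) to 17.95 ± 2.14 FPKM (SD, n = 4), a ratio of 2.32. On the log2 scale the difference was 1.23 (standard error 0.175, 95% confidence interval 0.841 to 1.624, adjusted p = 0.00141 from limma), the largest increase among the members. It was 0.92 with only Normal 1 and Normal 4 as controls (adjusted p = 0.00322 from limma). With the mean level of the cerebellum genes as a covariate it was 0.57, and the call was lost (adjusted p = 0.104 from limma).

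Tbr1, the T-box factor of layer 6, was at 12.4, 8.2, 8.1 and 14.1 FPKM in Normal mice. It was at 19.4, 22.9, 27.2 and 17.7 FPKM in HFD mice. The groups did not overlap, the lowest HFD mouse being HFD 4 and the highest HFD 3. The mean rose from 10.7 ± 3.03 to 21.8 ± 4.20 FPKM (SD, n = 4 each), a ratio of 2.04. Its log2 difference was 1.04 (standard error 0.197, 95% confidence interval 0.601 to 1.485, adjusted p = 0.00442 from limma). It was 0.70 with only Normal 1 and Normal 4 (adjusted p = 0.021) and 0.43 with the cerebellum covariate, where the call was lost (adjusted p = 0.367, both from limma). Tbr1 is known to repress Fezf2 in layer 6 neurons, and here the level of both was higher in HFD mice.

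Tle4, a Groucho family corepressor of corticothalamic neurons, was at 15.9, 14.1, 13.2 and 15.6 FPKM in Normal mice and at 19.2, 18.0, 19.7 and 18.8 FPKM in HFD mice. The groups did not overlap, and the HFD mice lay close together. The mean rose from 14.7 ± 1.27 to 18.9 ± 0.718 FPKM (SD, n = 4 each), a ratio of 1.29. The log2 difference was 0.37 (standard error 0.067, 95% confidence interval 0.216 to 0.515, adjusted p = 0.00382 from limma), which is below the 50% mark. It was 0.26 with only Normal 1 and Normal 4 (adjusted p = 0.018) and 0.15 with the cerebellum covariate, where the call was lost (adjusted p = 0.32, both from limma). It was -0.10 when each mouse was scaled to its cortical excitatory neuron genes (adjusted p = 0.511 from limma), a scaling that lowers the log2 difference of every gene by the same amount.

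Foxp2, the forkhead factor of layer 6, was the member with the lowest level. It was at 5.2, 6.5, 5.7 and 4.2 FPKM in Normal mice and at 2.6, 4.0, 4.1 and 3.2 FPKM in HFD mice. The groups were apart by little, since Normal 4 at 4.2 FPKM was next to HFD 3 at 4.1 FPKM and values were deposited in steps of 0.1. The mean fell from 5.40 ± 0.963 to 3.48 ± 0.709 FPKM (SD, n = 4 each), a ratio of 0.644. On the log2 scale this was -0.63 (standard error 0.168, 95% confidence interval -1.003 to -0.25, adjusted p = 0.0194 from limma). The call was lost without Normal 2 (-0.53, adjusted p = 0.0539 from limma) and with only Normal 1 and Normal 4 as controls (-0.44, adjusted p = 0.14 from limma), and with the cerebellum covariate (-0.37, adjusted p = 0.48 from limma). The direction of Foxp2 was opposite to that of Tbr1 and Tle4, the other 2 factors of layer 6 neurons.

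Pcp4, the calmodulin-binding peptide, had the highest level and the largest decrease of the 8. It was at 525.2, 577.6, 532.4 and 384.3 FPKM in Normal mice and at 181.8, 176.3, 192.2 and 186.2 FPKM in HFD mice. The groups were far apart, Normal 4 was the lowest Normal mouse, and the HFD mice were nearly alike. The coefficient of variation was 16.6% in Normal mice and 3.66% in HFD mice. The mean fell from 505 ± 83.7 to 184 ± 6.74 FPKM (SD, n = 4 each), so that Normal mice held 2.74 times the level of HFD mice. As a log2 difference this was -1.44 (standard error 0.111, 95% confidence interval -1.688 to -1.19, adjusted p = 0.00014 from limma). By its mean over all mice Pcp4 ranked 128 among the 13996 genes of the table. The log2 difference of Pcp4 was -1.29 with only Normal 1 and Normal 4 (adjusted p = 0.00192) and -1.30 with the cerebellum covariate (adjusted p = 0.0175, both from limma), the one member called in the latter fit. Medium spiny neurons of the striatum are known to express Pcp4, and the striatum genes were lower in the same 4 HFD mice.

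Etv1, the ETS factor of layer 5, was at 14.2, 18.5, 20.4 and 16.0 FPKM in Normal mice and at 21.5, 16.9, 22.8 and 21.7 FPKM in HFD mice. The groups overlapped through HFD 2, which lay below Normal 2 and Normal 3. The means were 17.3 ± 2.73 and 20.7 ± 2.61 FPKM (SD, n = 4 each). The log2 difference was 0.27 (standard error 0.124, 95% confidence interval -0.012 to 0.544, adjusted p = 0.127 from limma) and did not pass the test. Normal 2 and Normal 3, the Normal mice highest in cerebellum markers, were also the Normal mice highest in Etv1. With only Normal 1 and Normal 4 as controls the log2 difference was 0.45 and passed (adjusted p = 0.0348 from limma), and with the cerebellum covariate it was 0.67 (adjusted p = 0.0552 from limma).

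Nr4a2, the orphan receptor of layer 6b and claustrum, was at 10.7, 9.6, 8.8 and 13.0 FPKM in Normal mice and at 19.9, 15.2, 8.4 and 18.7 FPKM in HFD mice. HFD 1, HFD 2 and HFD 4 were above all Normal mice, while HFD 3 was the lowest of the 8. The means were 10.5 ± 1.82 and 15.55 ± 5.17 FPKM (SD, n = 4 each), and the coefficient of variation in HFD mice, 33.2%, was the highest of any member. The log2 difference was 0.50 (standard error 0.245, 95% confidence interval -0.049 to 1.05, adjusted p = 0.144 from limma) and did not pass. Without HFD 3 it was 0.77 and passed (adjusted p = 0.00696 from limma), so that 1 mouse decided the call. The other receptors of the family, Nr4a1 and Nr4a3, were named for their family and had log2 differences of -0.01 and 0.03 (adjusted p = 0.971 and 0.81 from limma). Among 13 immediate early genes, the class that neuronal activity induces, 5 were lower in HFD mice and 8 did not pass; Egr3, an immediate early gene outside that list, is given with the nearest profiles. Fos was at -1.24 (adjusted p = 0.00065) and Arc at -0.79 (adjusted p = 0.00897), while Egr1 was at 0.20 (adjusted p = 0.37) and Junb at -0.18 (adjusted p = 0.42, all log2 differences from limma).

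Crym, the thyroid hormone binding protein, was at 43.9, 38.5, 35.8 and 49.0 FPKM in Normal mice and at 55.9, 44.6, 40.0 and 60.0 FPKM in HFD mice. HFD 2 and HFD 3 lay within the Normal range. The means were 41.8 ± 5.86 and 50.1 ± 9.38 FPKM (SD, n = 4 each). Between diets the log2 difference was 0.25 (standard error 0.138, 95% confidence interval -0.057 to 0.562, adjusted p = 0.185 from limma) and did not pass. The intervals for Crym, Etv1 and Nr4a2 all reached from slightly below 0 to above 0.5.

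Since FPKM is per length, levels can be set side by side between genes. In Normal mice the order of mean FPKM was Pcp4, Crym, Etv1, Tle4, Tbr1, Nr4a2, Fezf2 and Foxp2. Pcp4 was apart from Crym and Crym from Etv1, but from Etv1 down each gene overlapped the next. In HFD mice the order was Pcp4, Crym, Tbr1, Etv1, Tle4, Fezf2, Nr4a2 and Foxp2. The 5 genes from Tbr1 to Nr4a2 each overlapped the next in HFD mice, while Nr4a2 was apart from Foxp2. Tbr1 and Fezf2 thus stood higher in the order of HFD mice than in that of Normal mice, within a run of overlapping neighbours.

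The mice within a diet did not rank alike for all members. In Normal mice, Tbr1, Nr4a2 and Crym had the order Normal 4, 1, 2, 3 from high to low, and Fezf2 and Tle4 had the order Normal 1, 4, 2, 3. For these 5 genes Normal 2 and Normal 3 were the lower pair. The summed FPKM of the cortical excitatory neuron genes had the order Normal 4, 1, 2, 3 as well. Foxp2 and Pcp4 ran Normal 2, 3, 1, 4, which was also the order of the summed thalamus genes and of the oligodendrocyte genes, but not that of the striatum genes (Normal 1, 2, 3, 4). Etv1 ran Normal 3, 2, 4, 1, the order of the summed cerebellum genes and of the cortical interneuron genes. In HFD mice, HFD 3 was the highest for Tbr1, Tle4, Foxp2, Etv1 and Pcp4, and the lowest for Nr4a2 and Crym. These orders rest on 4 mice each and are given as a description; the part of the other regions in the members' values was not tested beyond the covariate and the subset of Normal mice above.

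**Figure D2:**
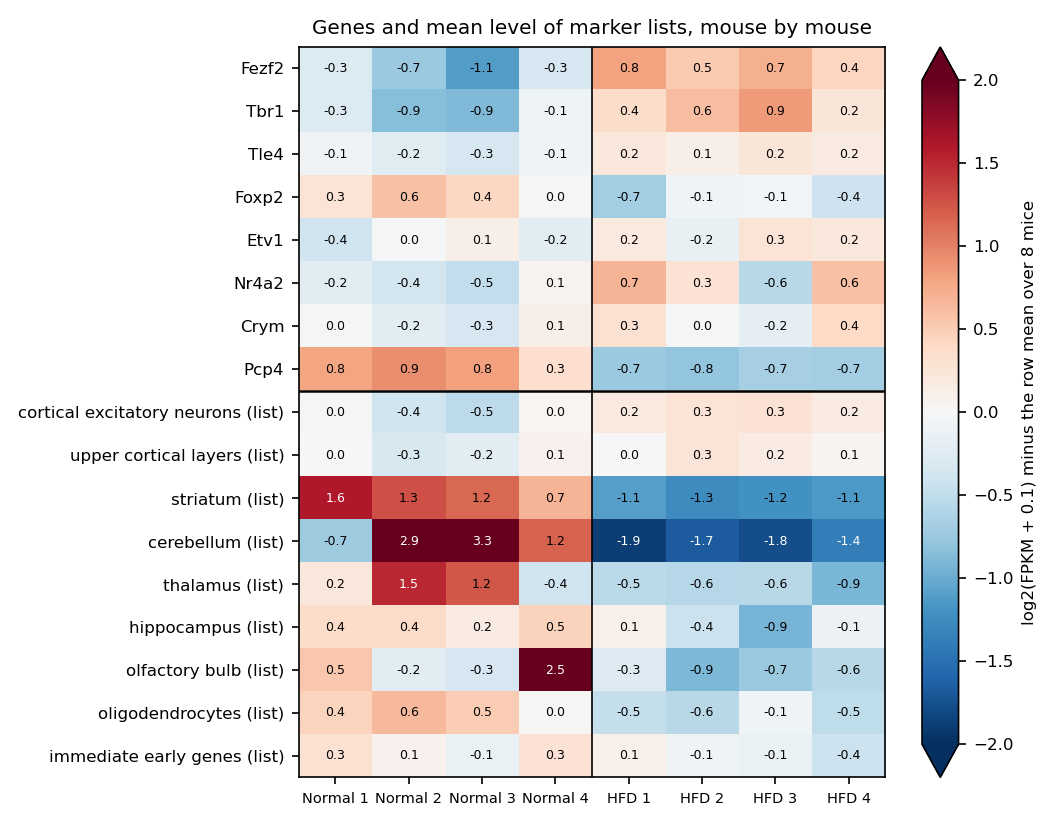
Level of each gene (top 8 rows) and mean level of each marker list (lower rows) in each mouse, as log2(FPKM + 0.1) minus the mean of the row over 8 mice; colours saturate at -2 and 2 and the value is printed in each cell. Fezf2 and Tbr1 are below their row means in all 4 Normal mice, the most in Normal 2 and Normal 3. The cerebellum and thalamus rows are highest in Normal 2 and Normal 3, and the cerebellum row is also high in Normal 4, where Tbr1 is the highest of the Normal mice. Pcp4 is high in the 4 Normal mice, as is the striatum row.

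To see whether members changed by different amounts, the log2 ratio of each pair of members within a mouse was compared between diets, for 28 pairs. With 4 mice against 4 the exact permutation test over 70 assignments cannot give a two-sided p below 0.0286, and 16 pairs reached it, each with no overlap between diets. After Benjamini-Hochberg adjustment over the 28 pairs that p became 0.05, at the threshold and not below it, so 0 pairs passed. All 7 pairs that include Pcp4 were among the 16. The log2 ratio of Fezf2 to Pcp4 was higher in HFD mice by 2.67 and that of Tbr1 to Pcp4 by 2.48 (exact permutation p = 0.0286 each, two-sided). The log2 ratio of Fezf2 to Foxp2 was higher by 1.86, and that of Fezf2 to Tle4 by 0.87 (exact permutation p = 0.0286 each). Fezf2 against Tbr1 differed between diets by 0.19 (exact permutation p = 0.286), Tle4 against Crym by 0.11 (exact permutation p = 0.514) and Etv1 against Crym by 0.01 (exact permutation p = 0.971), with overlapping values. These ratios within a mouse do not depend on how the library was scaled, apart from the added 0.1.

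**Figure D3:**
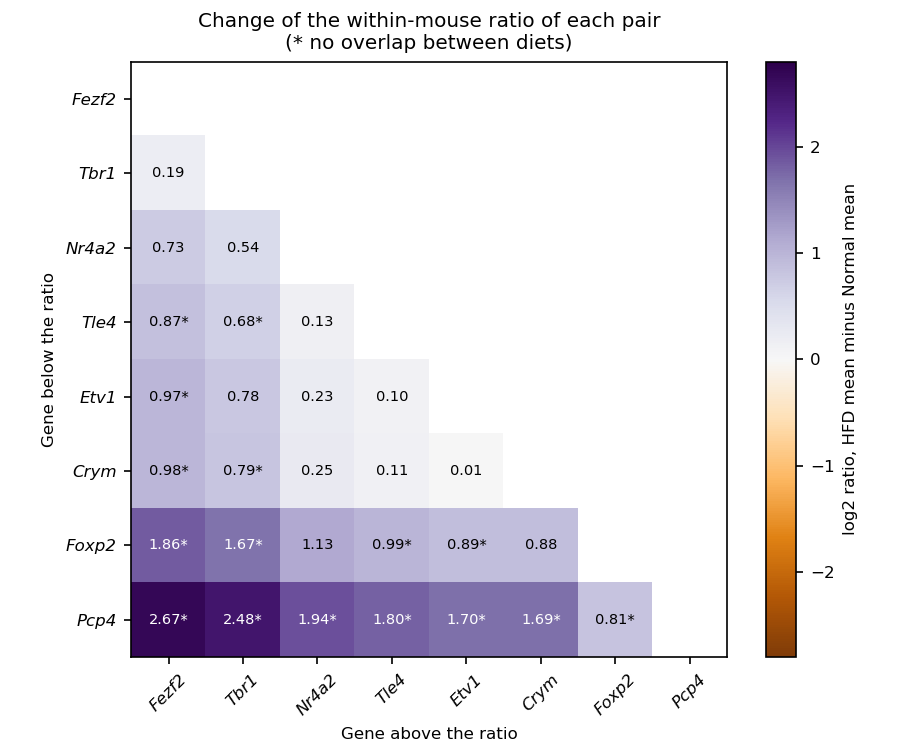
Difference between HFD and Normal means of the log2 ratio of 2 members within a mouse (column gene over row gene); an asterisk marks pairs whose 4 HFD and 4 Normal values do not overlap. The bottom row, with Pcp4 below the ratio, holds the largest value, 2.67 for Fezf2 over Pcp4, and the Etv1 and Crym pair the smallest, 0.01.

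Other genes of the same neuron classes, listed apart from the members, gave mixed directions. Of 10 genes of layer 5 extratelencephalic neurons, 5 were higher and 2 lower in HFD mice and 3 did not pass, with a median log2 difference of 0.35. Ldb2, a cofactor of LIM proteins, rose from 16.7 ± 1.61 to 27.8 ± 0.866 FPKM (SD, n = 4 each; log2 difference 0.74, adjusted p = 0.000349 from limma), and S100a10, which binds annexin 2, fell by 0.27 on the log2 scale (adjusted p = 0.00777 from limma). Igfbp4, a binding protein of insulin-like growth factors, was at 0.25 (adjusted p = 0.448 from limma). Bcl11b (Ctip2), which acts downstream of Fezf2 in specifying these neurons, was at 16.4 to 22.6 FPKM in Normal mice and 18.6 to 21.4 FPKM in HFD mice, with a log2 difference of 0.06 (adjusted p = 0.646 from limma); it was named after its values were seen. Of 5 genes of other layer 5 neurons, 3 were higher and 1 lower, with a median of 0.58. Tshz2, a zinc finger gene of near-projecting neurons, rose from 13.8 ± 1.36 to 39.55 ± 3.35 FPKM (SD, n = 4 each; log2 difference 1.51, adjusted p = 4.88e-05 from limma), more than any member. Hsd11b1, the enzyme that regenerates active glucocorticoid, was at -0.34 (adjusted p = 0.0251) and Rbp4, which carries retinol, at 0.23 (adjusted p = 0.0773, both log2 differences from limma).

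Of 8 genes of layer 6 corticothalamic neurons, 4 were higher and 2 lower in HFD mice and 2 did not pass, with a median log2 difference of 0.33. Syt6, a synaptotagmin, fell from 7.73 ± 0.640 to 3.73 ± 0.723 FPKM (SD, n = 4 each; log2 difference -1.05, adjusted p = 0.00112 from limma), while Rprm rose from 17.7 to 25.3 FPKM in Normal mice to 29.4 to 33.7 FPKM in HFD mice (log2 difference 0.62, adjusted p = 0.0041 from limma). Sulf1, a heparan sulfate sulfatase, fell by 0.75 on the log2 scale (adjusted p = 0.0223 from limma) with overlapping values, and Hs3st4, a heparan sulfate sulfotransferase, was at 0.27 (adjusted p = 0.0663 from limma). The layer 6 members and this list therefore both held genes in each direction. Of 7 genes of layer 6b and claustrum, the site of Nr4a2, 1 was higher, 1 lower and 5 did not pass, with a median of 0.09. Ctgf, a growth factor of the subplate, was at 0.51 (adjusted p = 0.00228), Gnb4, a G protein subunit of the claustrum, at -0.76 (adjusted p = 0.000895) and Ntng2, a netrin-G, at 0.20 (adjusted p = 0.309, all log2 differences from limma).

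Upper layer genes and genes of all cortical excitatory neurons were compared for contrast. Of 10 upper layer genes, 3 were higher and 7 did not pass, with a median of 0.14. Cux2 was at 0.77 (adjusted p = 0.0014), Rasgrf2 at 0.37 (adjusted p = 0.0509), Lamp5 at 0.08 (adjusted p = 0.778) and Cux1 at -0.04 (adjusted p = 0.614, all log2 differences from limma). Of 6 genes of cortical excitatory neurons, 4 were higher and 2 did not pass, with a median of 0.40, and their summed FPKM was 268.4 to 399.6 in Normal mice and 429.3 to 499.9 in HFD mice. Slc17a7 was at 0.49 (adjusted p = 0.0193), Neurod2 at 0.31 (adjusted p = 0.0262) and Neurod6 at 0.26 (adjusted p = 0.182, all log2 differences from limma). When each mouse was scaled to these 6 genes, the log2 difference of every gene was lowered by the same amount and the median of all genes moved to -0.46, so that any gene with a smaller increase had to turn. With this shift limma called 8500 genes, against 4626 without it, so a small adjusted p was common there. On that scale Fezf2 was at 0.77 (adjusted p = 0.00179), Tbr1 at 0.58 (adjusted p = 0.00525), Foxp2 at -1.09 and Pcp4 at -1.90 (log2 differences from limma). The scaling could not turn these 4, which had either a larger increase or a decrease. Tle4 (-0.10), Etv1 (-0.20) and Crym (-0.21) turned to below 0 and Nr4a2 was at 0.04 (log2 differences from limma). Whether a deep layer gene changed more than excitatory neuron genes as a whole was not tested in any other way.

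**Figure D4:**
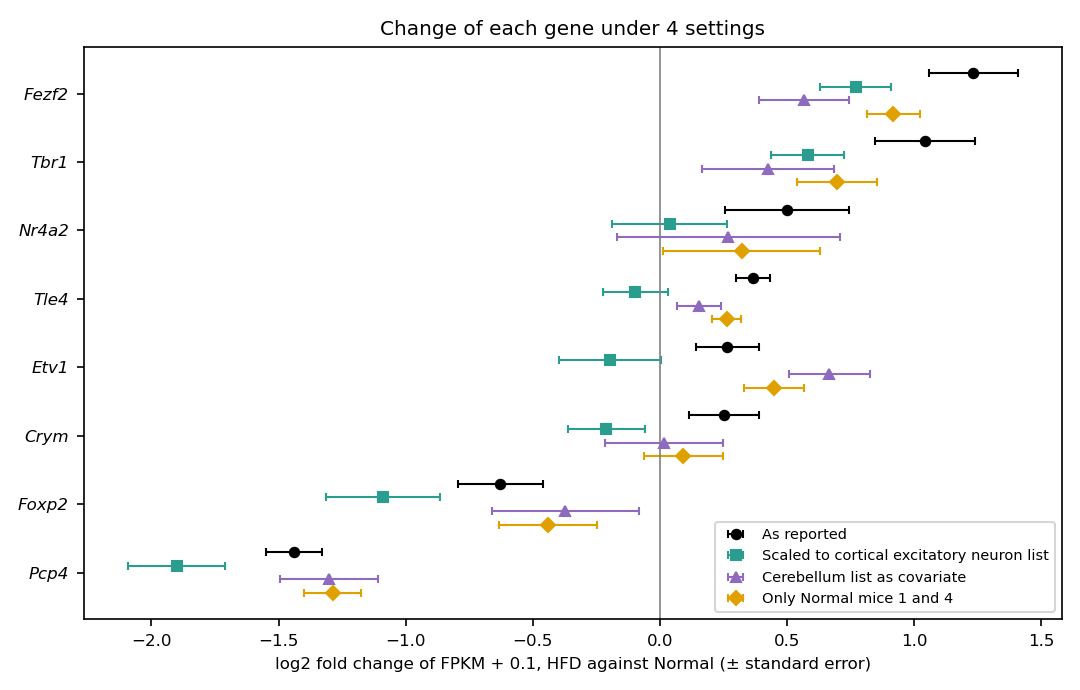
Log2 fold change of FPKM + 0.1 (HFD against Normal) of each gene, with its standard error, as reported (black), scaled to the cortical excitatory neuron genes (green), with the cerebellum genes as a covariate (purple) and with only Normal 1 and Normal 4 as controls (orange). Fezf2 and Tbr1 stay above 0 and Foxp2 and Pcp4 below 0 in all 4 settings. Tle4, Etv1 and Crym cross 0 under the scaling, which lowers every gene by the same amount.

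Genes of other regions and cell types differed between the diets in the same mice. All 10 striatum genes were lower in HFD mice (median -1.95), among them Penk, the enkephalin precursor, at -3.24 (adjusted p = 4.88e-05), Adora2a at -4.07 (adjusted p = 5.64e-05), Ppp1r1b (DARPP-32) at -1.70 (adjusted p = 0.000545) and Pde10a at -1.16 (adjusted p = 0.0012, all log2 differences from limma). Of 7 cerebellum genes in the test 5 were lower (median -2.85), with Cbln3 at -5.19 (adjusted p = 0.00348), Car8 at -2.95 (adjusted p = 0.0143) and Cbln1 at -1.62 (adjusted p = 0.0989, all from limma). Of 7 thalamus genes 2 were lower (median -0.90), with Prkcd at -2.37 (adjusted p = 0.00447 from limma). All 9 oligodendrocyte genes were lower (median -0.87), with summed FPKM of 2160.0 to 3552.9 in Normal mice and 1491.6 to 2059.9 in HFD mice, and Mbp at -0.77 (adjusted p = 0.00982 from limma). Of 5 hippocampus genes 2 were lower (median -0.68), of 2 olfactory bulb genes 0 were called (median -1.22; 1 at an unadjusted p below 0.05 in limma), and of 5 astrocyte genes 2 were lower (median -0.27). Of 5 cortical interneuron genes 1 was higher and 3 lower (median -0.23), and of 5 microglia genes 0 were called (median 0.04; 1 at an unadjusted p below 0.05 in limma). The values of these lists stand beside those of Pcp4 and Foxp2, which decreased in the same mice. For the fall of Pcp4 with the striatum genes, the diet and the marker level cannot be told apart.

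**Figure D5:**
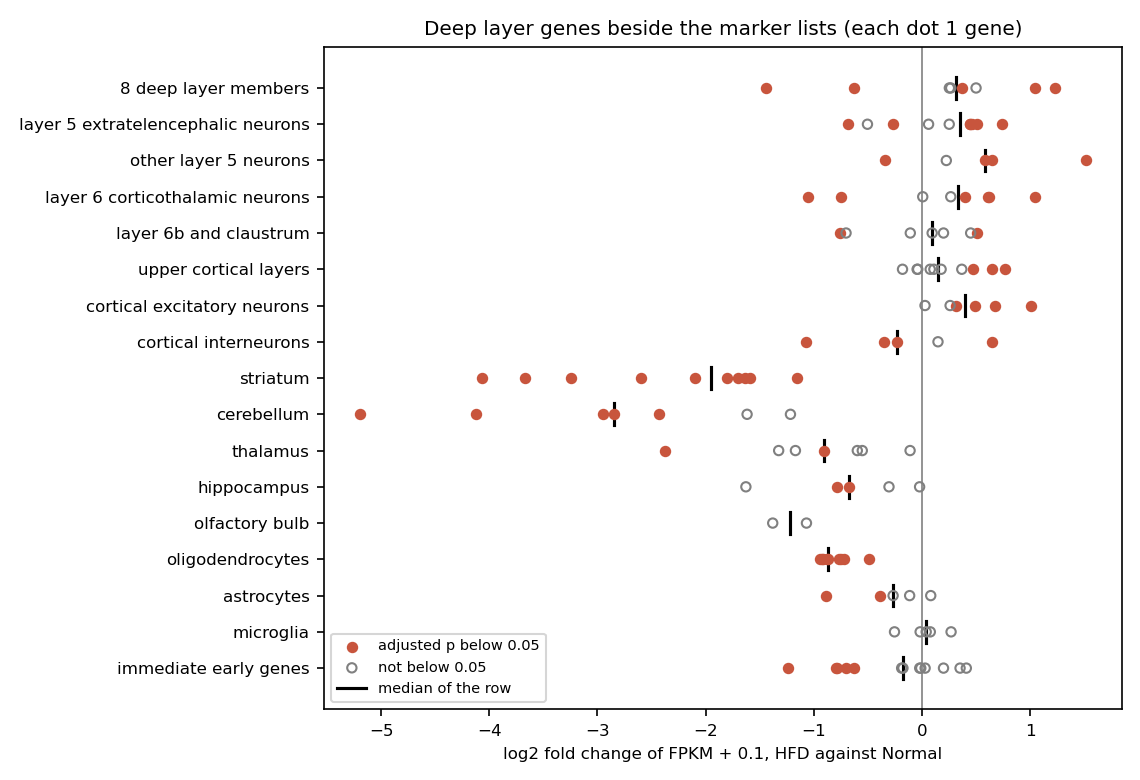
Log2 fold change of FPKM + 0.1 (HFD against Normal) of the 8 deep layer genes (top row) and of each gene of 16 marker lists; filled dots passed at an adjusted p below 0.05 and a black bar marks the median of a row. The deep layer rows hold dots on both sides of 0, the 10 striatum dots and the 9 oligodendrocyte dots all lie below 0, and the median of the striatum row is -1.95.

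For each member, the 3 genes with the nearest profile over the 8 mice were found among 9638 genes, by the distance of log2(FPKM + 0.1) centred on each gene's mean. Among those nearest to Tbr1 were Egr3 (distance 0.182), an immediate early transcription factor outside the list of 13, and Syn1 (0.343), a synaptic vesicle protein. Egr3 rose from 11.3 to 19.4 FPKM in Normal mice to 24.8 to 37.2 FPKM in HFD mice (log2 difference 1.02, adjusted p = 0.00301 from limma). Nearest to Fezf2 were RP24-63O23.1 (0.436), Tshz3 (0.468), a factor of deep layer projection neurons, and Satb1 (0.485). Among those nearest to Tle4 were Csrnp3 (0.111) and Apba2 (0.111). Nearest to Pcp4 were Strip2 (0.322), Rarb (0.450) and Pde10a (0.592), of which the last 2 are in the striatum list. Nearest to Foxp2 were Rarres2 (0.228), Prr18 (0.297) and Cpne9 (0.443), and nearest to Etv1 were Hexim2 (0.205), Txnip (0.298) and Wwox (0.311). Crym had Epha6 (0.290), Wnt7b (0.295) and Cnih3 (0.299), and Nr4a2 had Nov (0.563), Cpne7 (0.571) and Wnt7b (0.586), so that Wnt7b was near to both. Small distances are easier to reach for genes that vary little, such as Tle4. They describe likeness over 8 mice that share 2 diets, and nothing of shared function or control.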

How the data were processed

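The samples were 8 libraries of cortex, 4 for each diet, grouped by the labels. Per the labels and the study's methods, the authors checked reads with FastQC, trimmed them with Trimmomatic, mapped them with STAR to mm10 and computed FPKM with Cuffnorm on the GENCODE M17 basic annotation, in stranded paired-end libraries from RNA of high integrity. The sources used here give no tool versions. The deposited FPKM are rounded to 0.1 and hold no counts, so depth is unknown and no counting interval was made. Their sums per mouse ran from 562431 to 639142. The filter of the authors asks for a mean FPKM of 1 or more without a value of 0, and the 14 of 13996 genes outside that filter were left out here, among them Gabra6 and Shox2 of the lists. A second set of processing by the authors (Salmon, edgeR) and circular RNAs were not analysed here.

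limma 3.58.1 (R 4.3.3) with a variance trend was fitted on log2(FPKM + 0.1) of 13982 genes, two-sided, with Benjamini-Hochberg adjustment over all of them. A log2 fold change on this scale understates the change of genes with a low level. Pairs of members were compared by an exact permutation test (Python 3.11.15). The fit was tested on simulated data for this comparison (13982 genes): it recovered 86 of 100 genes changed 2-fold and 71 of 100 changed 1.5-fold, with 7 unchanged genes called. The simulated noise was independent for each gene. It held no variation shared between genes, such as that of the region markers here, so these counts give no error rate for the mice. Coordinates are those of GENCODE M21. Alternatives were the pseudocount, the filter, 3 rescalings, the variance trend, a stricter rule, a replicate block, 2 covariates, each mouse left out, and, chosen after seeing the data, only Normal mice 1 and 4. The text names the members, for each of 16 marker lists up to 3 genes with the highest level and the one with the largest change (all of them for the deep layer lists, some for the others), and the 3 nearest profiles of each member; some genes under this rule are not reported here. The members and lists were chosen with earlier results of these data known. The samples carry the same numbers in both diets, but same-numbered mice did not deviate together.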

Additional observations from a re-analysis of the deposited data

Results flagged for a closer look

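The summed FPKM of the 2 olfactory bulb genes was 20.2 in Normal 4, against 2.6 to 5.0 in the other Normal mice; the gap to the nearest mouse was 0.864 of the range of the group, above Dixon's critical value for 4 samples. The summed FPKM of the 9 oligodendrocyte genes was 2059.9 in HFD 3, against 1491.6 to 1548.5 in the other HFD mice, a gap of 0.9 of the range. No deep layer gene met this rule in either diet. In all, 48 groups of 4 mice were examined (8 genes and 16 lists in each diet), and chance alone sets apart about 5% of such groups.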

How the results depend on the processing

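The log2 differences of the members stayed between 1.07 and 1.35 (Fezf2), 0.93 and 1.19 (Tbr1), 0.32 and 0.40 (Tle4), -0.74 and -0.50 (Foxp2), 0.18 and 0.36 (Etv1), 0.36 and 0.77 (Nr4a2), 0.16 and 0.36 (Crym), and -1.57 and -1.37 (Pcp4) when any 1 mouse was left out. The number of members called then ran from 4 to 6 (from 3 to 5 with a change over 50%), that of all genes from 3295 to 4619 (from 771 to 1196), and that of pairs without overlap from 16 to 20. Scaling to the cortical excitatory neuron genes, which lowers every gene alike, turned Tle4 (-0.10), Etv1 (-0.20) and Crym (-0.21) to below 0, and called 8500 genes against 4626, of which 4247 by over 50% against 997. The cerebellum covariate, whose values did not overlap between the diets, called 459 genes (245 by over 50%) and 1 member, Pcp4 (also by over 50%). The striatum covariate, which nearly follows the diet, called 0 genes and 0 members in limma, with Foxp2 at 0.041 and Crym at -0.005, both reversed, with standard errors of 0.866 and 0.732, while Fezf2 (1.295, standard error 0.933) and Tle4 (0.40, standard error 0.357) were about as large as before. The stricter rule (unadjusted p below 0.005 and a change over 50%) called 841 genes and lost Tle4. A change over 50% was called for 603 genes with a pseudocount of 1 and for 422 with a mean FPKM of at least 5, where Foxp2 fell outside the filter. With only Normal 1 and Normal 4, 2743 genes were called, 604 of them by over 50%. Same-numbered mice did not pair (correlations of their deviations of -0.04, -0.03, -0.11 and -0.07, and 0 of 4 Normal mice correlated best with their own number). A fit with the replicate number as a block called 3390 genes and 6 members, adding Crym (0.25, adjusted p = 0.0202 from limma). Rounding to 0.1 limits the values of genes near 1 FPKM. The causes of these differences were not tested.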
